A study of Homo sapiens with 4 samples.

Results

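The genes described here are 40 genes of mitosis and the spindle, taken by name from a list, with no value on the arrays in the rule. All 40 were on the array, out of 25992 gene names, and were read by 46 probes on 118 spots of each array. They fall by role into 9 cyclins and kinases that drive entry into mitosis, 4 spindle checkpoint genes, 7 genes of the centromere and kinetochore, 4 of the chromosomal passenger complex, 8 for motors, spindle and chromosome structure, 4 for anaphase and its ubiquitin ligase, and 4 for the central spindle and cytokinesis.

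Gene expression was measured on 4 one-colour arrays of human proximal tubular cells (HPTCs), 2 labelled HK-2 and 2 labelled RPTEC/TERT1 (n = 2, each), which are written r1 and r2 after the label for replicates 1 and 2. HK-2 is an established line carrying the papillomavirus genes E6 and E7, and RPTEC/TERT1 is an established line made to express TERT, the catalytic part of telomerase. Every culture went without serum and supplements for 24 h and then received IL-1β (10 ng/mL) together with the SGLT2 inhibitor empagliflozin (Empa, 500 nM) for 24 h in normal glucose. Arrays of untreated cells and of IL-1β alone are not analysed here, so no value below is an effect of IL-1β or of Empa, and the comparison the labels allow is that of the lines under the same stimulation.

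Mitosis is run by cyclin-dependent kinase 1 with its cyclins and by the Polo and Aurora kinases. Chromosomes attach to the spindle through kinetochores, a checkpoint holds back anaphase until all are attached, and a ubiquitin ligase, the anaphase-promoting complex (APC/C), then lets them part. Transcripts of many of these genes are known to be low in resting cells and to rise late in the cell cycle, under the MuvB complexes with MYBL2 and FOXM1, and promoters of this group often carry a cell-cycle homology region (CHR) and CCAAT boxes. In RNA of whole cultures, fewer cells in division and less of the transcript in each cell cannot be told apart.

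Promoters of 5 of the genes are shown because these genes span the results that follow, from wide differences between arrays (TOP2A, CDK1, CCNB2) to the narrowest (INCENP, PTTG1). Each is the RefSeq window on GRCh38.p14 from 250 bases before the start of transcription to 50 bases after it, written 5′ to 3′ on the strand of the gene. Capitals mark the CHR letters TTTGAA and the CCAAT box letters CCAAT, searched on both strands, so that TTCAAA and ATTGG are matches too. TOP2A lies at chr17:40417847-40418146 (minus strand), CDK1 at chr10:60778228-60778527 (plus strand, the later of its starts), CCNB2 at chr15:59104896-59105195 (plus strand), INCENP at chr11:62123761-62124060 (plus strand) and PTTG1 at chr5:160421605-160421904 (plus strand, the earlier of its starts).
TOP2A: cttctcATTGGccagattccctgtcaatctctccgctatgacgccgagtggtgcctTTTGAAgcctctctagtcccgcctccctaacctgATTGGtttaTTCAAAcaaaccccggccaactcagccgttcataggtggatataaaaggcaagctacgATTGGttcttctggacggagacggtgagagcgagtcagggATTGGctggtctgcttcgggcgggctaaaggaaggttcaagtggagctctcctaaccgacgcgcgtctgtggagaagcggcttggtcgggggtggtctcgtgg
CDK1: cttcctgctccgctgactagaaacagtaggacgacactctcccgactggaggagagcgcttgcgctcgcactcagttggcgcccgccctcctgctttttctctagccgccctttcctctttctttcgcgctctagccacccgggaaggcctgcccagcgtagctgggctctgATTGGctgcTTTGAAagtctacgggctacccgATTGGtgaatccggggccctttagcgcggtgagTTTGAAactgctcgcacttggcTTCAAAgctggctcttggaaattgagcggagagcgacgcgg
CCNB2: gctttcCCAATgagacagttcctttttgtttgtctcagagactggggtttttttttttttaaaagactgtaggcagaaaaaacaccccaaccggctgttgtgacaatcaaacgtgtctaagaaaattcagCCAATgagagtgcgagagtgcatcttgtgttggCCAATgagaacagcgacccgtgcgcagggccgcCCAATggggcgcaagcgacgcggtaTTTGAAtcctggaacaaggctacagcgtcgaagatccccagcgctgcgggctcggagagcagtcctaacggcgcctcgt
INCENP: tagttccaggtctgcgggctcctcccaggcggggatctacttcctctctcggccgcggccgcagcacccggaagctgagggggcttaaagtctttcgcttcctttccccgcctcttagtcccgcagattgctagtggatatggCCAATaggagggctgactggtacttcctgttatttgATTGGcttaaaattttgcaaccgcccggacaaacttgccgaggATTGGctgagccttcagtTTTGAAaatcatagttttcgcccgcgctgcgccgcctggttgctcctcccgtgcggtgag
PTTG1: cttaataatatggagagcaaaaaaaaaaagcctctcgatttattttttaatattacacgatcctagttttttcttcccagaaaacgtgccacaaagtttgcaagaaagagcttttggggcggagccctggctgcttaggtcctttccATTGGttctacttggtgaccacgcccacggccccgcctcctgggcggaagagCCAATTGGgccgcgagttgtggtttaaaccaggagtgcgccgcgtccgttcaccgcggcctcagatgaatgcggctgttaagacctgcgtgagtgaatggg
The TOP2A window held 2 CHR and 4 CCAAT matches, that of CDK1 3 and 2, that of CCNB2 1 and 4, and that of INCENP 1 and 3. In PTTG1 there was no CHR match and 3 CCAAT matches, of which a pair on opposite strands overlap.

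RefSeq promoters were found for 35 of the 40 genes, with 41 windows in all since some genes have several starts. AURKA, BIRC5, TPX2, TTK and UBE2C had no entry in the table used. The letters TTTGAA stood in 27 of the 41 windows, or 65.9%, against 15.2% of all 35116 promoter windows and 12.4% of the 22199 windows of protein-coding genes. CCAAT stood in 78.0% of the windows of the mitotic genes and in 34.6% of all windows, and both motifs together in 56.1% and 5.90%. The E2F-type letters GCGGGAA were found in 9.76% of the mitotic windows and 6.55% of all. The median position was 27 bases before the start for CHR matches (-27) and 85 bases before it for CCAAT matches (-85). These are matches of letters in a window and not measured sites of binding.

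**Figure D1:**
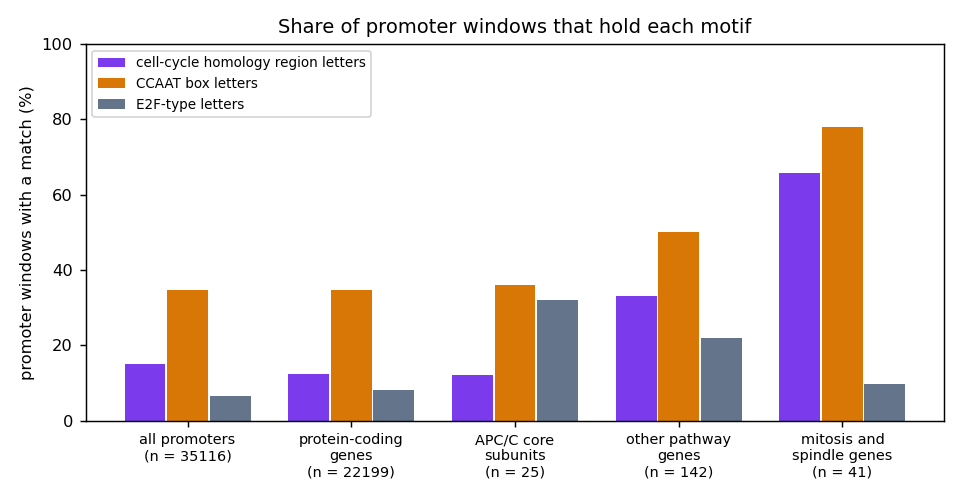
Percent of RefSeq promoter windows of 300 bases (vertical axis) that hold the CHR letters, the CCAAT letters or the E2F-type letters, for all promoters, protein-coding genes, core subunits of the APC/C, other genes of the mitotic pathway and the mitosis and spindle genes, with the number of windows under each set. CHR letters stand in 65.9% of the windows of the mitosis and spindle genes and in 12.0% of those of the APC/C core subunits.

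Values below are levels, the log2 of the processed spot signal over the 75th percentile of its array, so that 0 is the brightness of that percentile and a level can be compared between arrays but not between genes. The percentile was 393 on HK-2 r1, 748 on HK-2 r2, 488 on RPTEC/TERT1 r1 and 429 on RPTEC/TERT1 r2. Between 59.2% and 64.9% of the 43118 spots of an array were well above background, and spots of a probe that is printed 10 times had a median SD of 0.076 to 0.13 on the log2 scale. A level of -5.37 is the floor, set at the dimmest signal that can be told from background on every array. Replicate 1 of both lines was scanned on 1 date and replicate 2 on another, so a replicate number also stands for a scan date. Across the 16468 genes tested, the array labelled HK-2 r2 correlated with RPTEC/TERT1 r1 at r = 0.975 and with HK-2 r1 at r = 0.847, and HK-2 r1 correlated with RPTEC/TERT1 r2 at r = 0.983 (Pearson, across genes; genes are no independent replicates). The arrays thus pair across their labels, and each is called below by its label only. Whether the labels of a replicate number were exchanged was not tested, and each difference between the labels given below, its size included, holds only for the labels as they stand.

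The mitosis and spindle genes were bright on the arrays labelled HK-2 r2 and RPTEC/TERT1 r1 and dim on those labelled HK-2 r1 and RPTEC/TERT1 r2. These were the 2 brightest arrays for 39 of the 39 genes with a value on every array, while 33.2% of all genes tested had that order; with normexp background correction it held for 34 of 39 and in the deposited log2 values for 38 of 39. The range over the arrays, highest minus lowest level, had a median of 5.62 over these 39 genes and of 1.05 over all genes tested. With the main scaling it passed 16-fold for 34 of them, against 4.06% of all genes tested. The median range of the 39 genes was smaller with normexp (4.04) and in the deposited log2 values (3.90). For a gene at the floor the range is a lower bound. The remaining gene, CDCA8, had an outlier flag on its only spot of HK-2 r2 and was left out of the counts.

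**Figure D2:**
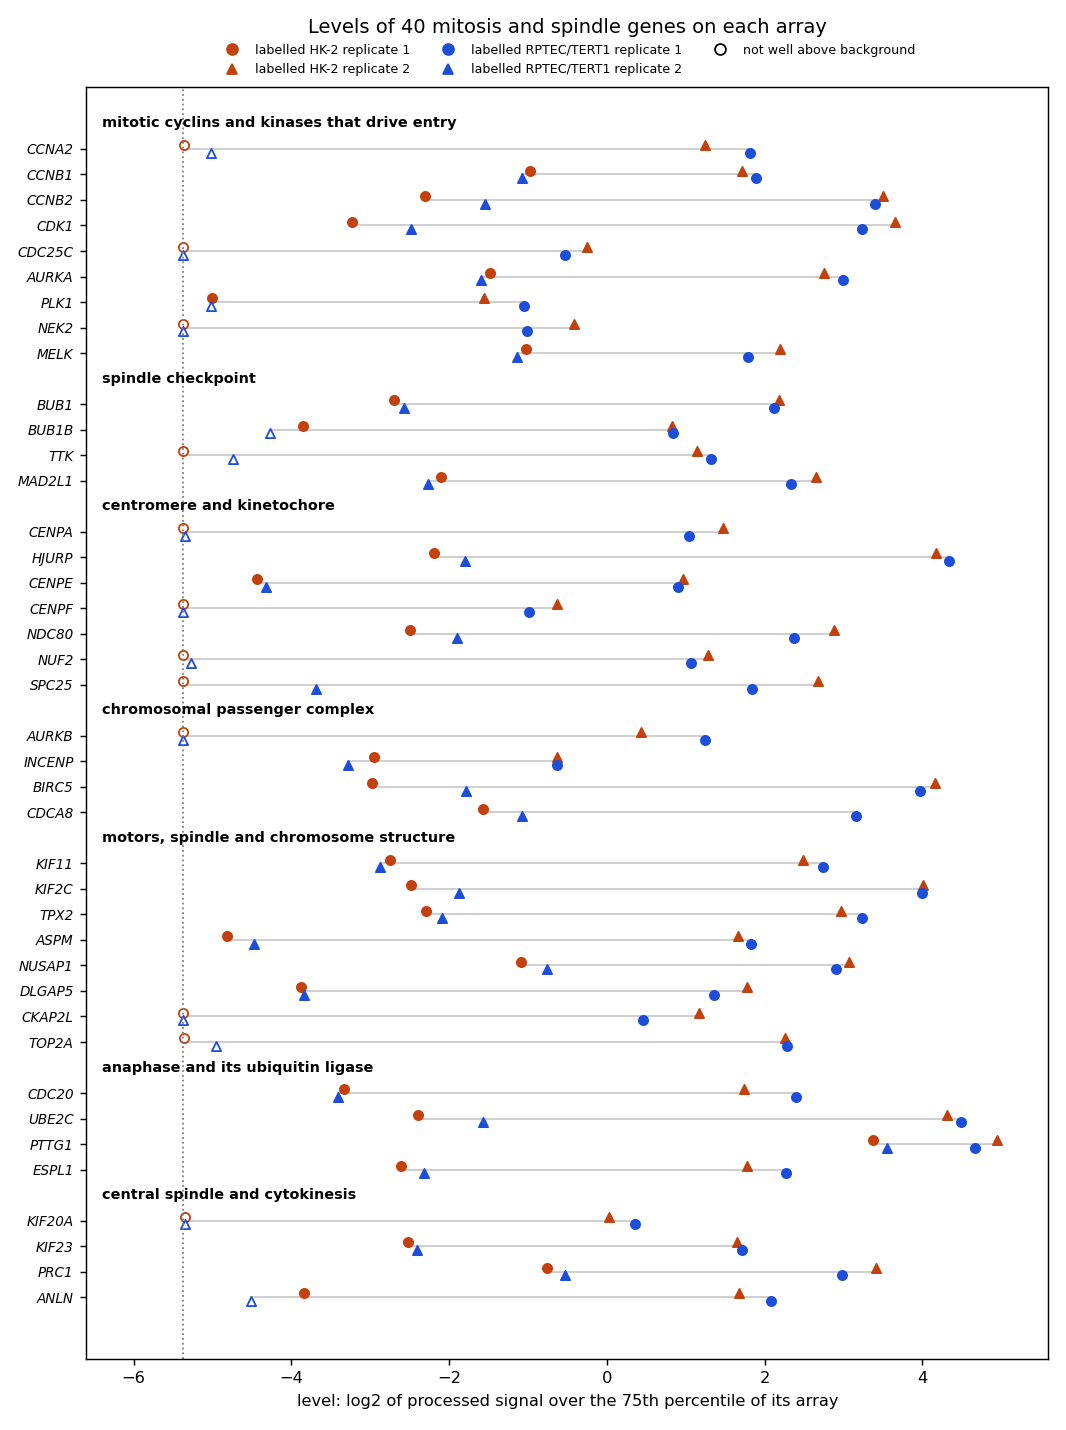
Level of each of the 40 genes on the 4 arrays (horizontal axis, log2 of processed signal over the 75th percentile of the array), grouped by role; circles are replicate 1, triangles replicate 2, open symbols are not well above background, the dotted line is the floor of -5.37, and the grey line joins the lowest and highest array. The arrays labelled HK-2 r2 and RPTEC/TERT1 r1 lie to the right of the other two for every gene with 4 values, by at least 1.11 with this scaling; CDCA8 has no value on HK-2 r2.

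The filter kept genes well above background on at least 2 arrays, and all 40 passed it on brightness. On HK-2 r2 and RPTEC/TERT1 r1, 0 of the genes with a value were below it. By contrast, 12 genes were not well above background on HK-2 r1, 14 on RPTEC/TERT1 r2 and 11 on both of these arrays. Those 11 passed the filter only through the arrays on which they were bright, so counts over 24 genes that were well above background on all 4 arrays are also given. The order was the same for 24 of those 24, with a median range of 5.39. The matching share and median range over the 13778 genes well above background on all 4 arrays were not computed. The share and median for all genes given above come from the looser filter. A gene with several probes counts as above background where any of them was. The dimmer ASPM probe was not, on HK-2 r1 and RPTEC/TERT1 r2, although ASPM is among the 24.

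Of the genes that drive entry into mitosis, CDK1, the kinase at the centre of the process, stood at -3.22 on HK-2 r1, 3.65 on HK-2 r2, 3.23 on RPTEC/TERT1 r1 and -2.48 on RPTEC/TERT1 r2. Each label thus held 1 high and 1 low array, and the levels of the labels overlapped. Within replicate 1 the array labelled RPTEC/TERT1 was 87.7-fold brighter, and within replicate 2 the array labelled HK-2 was 70.1-fold brighter. Its 60-base probe spans 1647 bases of the genome (GRCh37, chr10:62552004-62553650), that is, it lies across an exon junction.

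CCNB2, a B-type cyclin that partners CDK1, had levels of -2.30, 3.50, 3.41 and -1.55, in the order HK-2 r1, HK-2 r2, RPTEC/TERT1 r1 and RPTEC/TERT1 r2, which is kept for every gene from here on. The high pair of arrays differed by 0.09 and the low pair by 0.75. For CCNB1, the other B-type cyclin, the levels were -0.98, 1.71, 1.89 and -1.08, the smallest range (2.97) among these 9 genes. CCNA2, the A-type cyclin of S phase and mitotic entry, was at -5.36, 1.25, 1.82 and -5.01. It was not well above background on either low array, so that RPTEC/TERT1 was at least 146-fold brighter within replicate 1 and HK-2 at least 76.4-fold brighter within replicate 2.

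Among the kinases, AURKA, which matures the spindle poles, was at -1.49, 2.75, 3.00 and -1.59, and the arrays split as for the cyclins. PLK1, the Polo kinase, was at -5.00, -1.56, -1.05 and -5.01 as the mean of its probes. The order of its arrays depended on the background correction: with normexp PLK1 was at -0.31, -1.20, -0.75 and -2.82, which puts HK-2 r1 highest. NEK2, a kinase of the centrosome, and CDC25C, the phosphatase that activates CDK1, lay at the floor on HK-2 r1 and RPTEC/TERT1 r2. With normexp HK-2 r1 was highest for these genes too, with NEK2 at -0.32, -0.39, -0.80 and -2.93 and CDC25C at -0.32, -0.37, -0.57 and -2.86. MELK, a kinase that follows the cell cycle, ranged over 3.34. With the main scaling, HK-2 minus RPTEC/TERT1 ran from -7.18 to -2.81 over the 9 genes within replicate 1 and from 2.79 to 6.26 within replicate 2.

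The spindle checkpoint genes split the arrays in the same way, 4 of 4. BUB1, a checkpoint kinase of the kinetochore, was at -2.69, 2.19, 2.12 and -2.57, and its partner BUB1B was at -3.86, 0.82, 0.83 and -4.27. For BUB1B the high arrays differed by 0.01 and the low arrays by 0.41. TTK, the kinase that starts the checkpoint signal, was at the floor on HK-2 r1 and at least 104-fold brighter on RPTEC/TERT1 r1. MAD2L1, which binds and restrains CDC20, was at -2.11, 2.65, 2.33 and -2.26.

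Genes of the centromere and kinetochore had a median range of 6.53. SPC25, a subunit of the NDC80 complex that holds microtubules, had levels of -5.37, 2.68, 1.85 and -3.68, a range of at least 8.05. It was not well above background on HK-2 r1, and HK-2 r2 was at least 265-fold brighter than that array of the same label. NDC80 itself was at -2.49, 2.88, 2.38 and -1.90, and NUF2, the subunit it pairs with, was at -5.37, 1.29, 1.07 and -5.27. CENPA, the histone variant that marks centromeres, was at -5.37, 1.47, 1.04 and -5.35, and HJURP, its chaperone, was at -2.20, 4.17, 4.33 and -1.79. In each of these genes both high arrays lay above both low ones, with no overlap between them and full overlap between the labels.

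CENPE, the kinesin of the kinetochore, was at -4.43, 0.96, 0.90 and -4.32. CENPF, a large protein of the outer kinetochore, was read here by its dimmer probe alone, since the brighter one was an outlier on HK-2 r2. It was at -5.37, -0.63, -0.99 and -5.37, and with outlier spots kept at -3.67, 1.93, 1.76 and -3.48. The split of the arrays was the same both ways. With normexp it was lost: CENPF was then at -0.32, -0.52, -0.79 and -3.00, which puts HK-2 r1 highest.

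The chromosomal passenger complex consists of the kinase AURKB and the proteins INCENP, BIRC5 (survivin) and CDCA8 (borealin) that place it on chromosomes. BIRC5 was at -2.98, 4.16, 3.97 and -1.79, and AURKB at -5.37, 0.44, 1.24 and -5.37. INCENP, the scaffold, was at -2.95, -0.63, -0.64 and -3.28, with a range of 2.65. The split was present in INCENP as well, but with normexp its level on HK-2 r1 was -0.28, above those on HK-2 r2 and RPTEC/TERT1 r1 (-0.59 on each). CDCA8 was at -1.57 on HK-2 r1, 3.16 on RPTEC/TERT1 r1 and -1.08 on RPTEC/TERT1 r2, and the spot marked as an outlier on HK-2 r2 would place it at 3.67 there.

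TOP2A, the topoisomerase that untangles sister chromosomes, was read by 10 spots per array (GRCh37, chr17:38545709-38545768). Its levels were -5.36, 2.25, 2.29 and -4.96, and the high pair of arrays differed by 0.03. Before scaling, the spots ran from 2.88 to 10.6 on HK-2 r1, from 3340 to 4019 on HK-2 r2, from 2173 to 2874 on RPTEC/TERT1 r1 and from 10.4 to 21.3 on RPTEC/TERT1 r2. No spot of a low array came near the spots of a high one. TOP2A was not well above background on the low arrays, and the fold was at least 202 within replicate 1, with RPTEC/TERT1 brighter, and at least 145 within replicate 2, with HK-2 brighter.

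**Figure D3:**
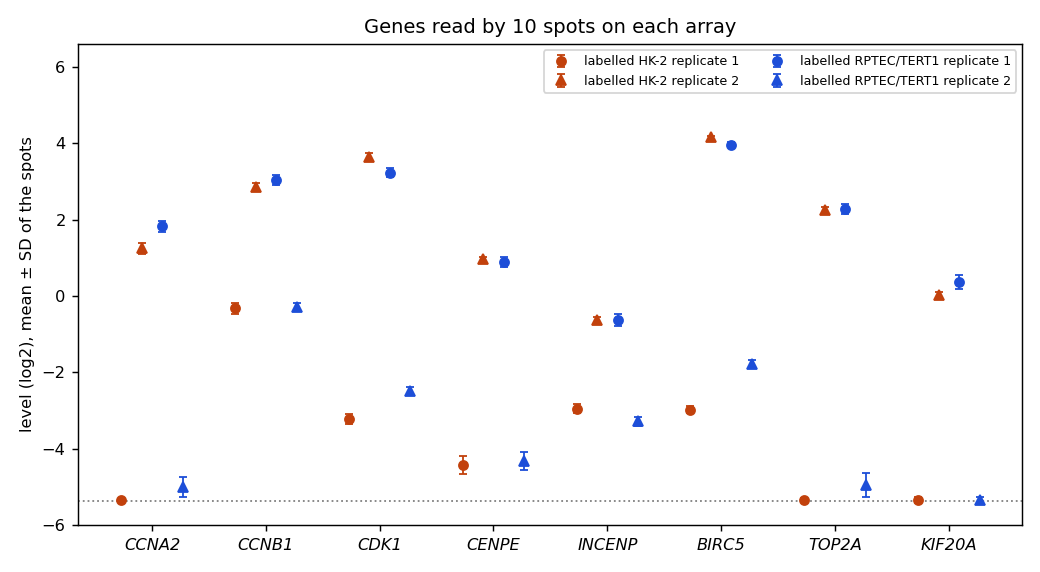
Level (vertical axis, log2; mean ± SD of the 8 to 10 usable spots of 1 probe on 1 array) of the 8 genes read by a probe printed 10 times; the dotted line is the floor. The SD of the spots is at most 0.32, while in each gene at least 2.31 separates the high arrays, HK-2 r2 and RPTEC/TERT1 r1, from the low ones.

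Of the motors and spindle proteins, KIF11, the kinesin that drives spindle poles apart, was at -2.75, 2.48, 2.74 and -2.88. KIF2C, a kinesin that shortens microtubules, was at -2.48, 4.02, 4.00 and -1.87, and TPX2, which activates AURKA on the spindle, was at -2.29, 2.97, 3.23 and -2.09. ASPM, a protein of the spindle poles, had a range of at least 6.64, and NUSAP1, which bundles microtubules around chromosomes, the smallest of the group at 4.16. DLGAP5, a spindle protein, ranged over 5.66 and CKAP2L over at least 6.55. All 8 genes of the group split the arrays as TOP2A did.

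In the group for anaphase, CDC20, the activator of the APC/C, was at -3.33, 1.74, 2.40 and -3.40. UBE2C, the ubiquitin-conjugating enzyme of the APC/C, was at -2.39, 4.31, 4.49 and -1.57, and ESPL1 (separase), which cuts cohesin, was at -2.61, 1.78, 2.27 and -2.32. PTTG1 (securin), which holds separase back, had the narrowest range of the 39 genes, 1.57, with levels of 3.37, 4.94, 4.67 and 3.56. It was bright on all arrays and split them in the same order, by 2.46-fold within replicate 1 and 2.61-fold within replicate 2. PTTG1 has near-identical copies elsewhere in the genome that its probe may also read, so its value is uncertain.

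For the central spindle and cytokinesis, PRC1, which bundles the midzone microtubules, was at -0.75, 3.41, 2.98 and -0.53, and the kinesin KIF23 was at -2.53, 1.66, 1.71 and -2.41. ANLN (anillin), a scaffold of the contractile ring, was at -3.84, 1.68, 2.08 and -4.51. KIF20A, a kinesin that carries the passenger complex to the midzone, was at -5.35, 0.03, 0.36 and -5.34, and both low arrays were below background. HK-2 minus RPTEC/TERT1 ran from -5.92 to -3.74 over these 4 genes within replicate 1 and from 3.94 to 6.18 within replicate 2.

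The labelled comparison asks whether the lines differ under the same stimulation. Limma with Benjamini-Hochberg adjustment called 0 of the 39 genes and 0% of the 16468 genes tested. At an unadjusted p under 0.05 it counted 0 of the 39 and 23 genes in all (0.14%). The difference, HK-2 minus RPTEC/TERT1, had a median of -0.07 over the 39 genes and 0.02 over all genes tested, and lay between -0.50 (BIRC5) and 0.36 (CKAP2L). Its 95% interval ran from -8.52 to 8.19 for CDK1 (HK-2 0.21 ± 4.86, RPTEC/TERT1 0.37 ± 4.04, SD, n = 2, limma adjusted p = 1), from -10.01 to 9.59 for TOP2A and from -2.07 to 2.16 for PTTG1. Differences of many-fold in either direction are inside these intervals. An exchange of the labels within either replicate number would put the high arrays under 1 label and the low arrays under the other. With the labels as given, the arrays of the labels separated in 0 of the 39 genes, against 7.17% of all genes tested. An exact permutation test of 2 arrays against 2 cannot give a two-sided p below 0.333.

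Taken by replicate number, the difference between the labels was large and of opposite sign. Within replicate 1, HK-2 was lower by over 2-fold in 39 of 39 genes, against 16.4% of all genes tested, with a median of -5.49 (all genes 0.12); under normexp 31 of 39 passed 2-fold, and CDC25C, PLK1, NEK2, CENPF and INCENP turned in direction. Within replicate 2, HK-2 was higher by over 2-fold in 39 of 39, against 16% of all genes tested, with a median of 5.15 (all genes -0.08). Both held at once for 39 of 39 genes and for 12.8% of all genes tested. These are differences between single arrays, and no test was made on them.

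**Figure D4:**
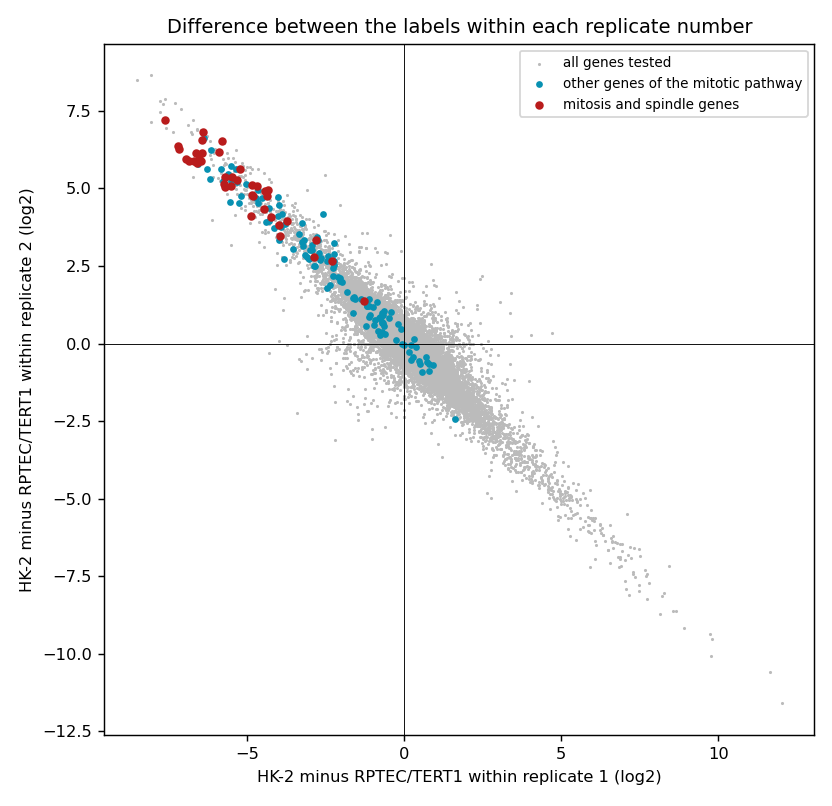
Difference in level, HK-2 minus RPTEC/TERT1 (log2), within replicate 1 (horizontal axis) and within replicate 2 (vertical axis), for the 39 mitosis and spindle genes with 4 values (red), other genes of the mitotic pathway (blue) and all 16468 genes tested (grey). The red points all lie in the upper left, with medians of -5.49 and 5.15. Other genes tested reach further, to -8.53 within replicate 1 and to 8.65 within replicate 2. With normexp 5 of the red points cross to the right of 0.

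Arrays of unlike label lay close together. Between HK-2 r2 and RPTEC/TERT1 r1, 0 of the 39 genes differed by over 2-fold, and differences ran from -0.80 (AURKB) to 0.83 (SPC25) with a median of 0.01; 3.92% of all genes tested were over 2-fold higher and 2.87% over 2-fold lower. From HK-2 r1 to RPTEC/TERT1 r2 the median was -0.11, and 2 genes were over 2-fold lower on HK-2, BIRC5 (-1.19) and SPC25, against 2.75% of all genes tested. SPC25 was not well above background on HK-2 r1, and its difference of -1.69 is a bound, since its level there is the floor. Within a label, the arrays differed by a median of 5.38 for HK-2 (replicate 2 minus 1) and of 5.22 for RPTEC/TERT1 (replicate 1 minus 2). With the main scaling HK-2 r2 was over 2-fold above HK-2 r1 in 39 of 39 genes (16.4% of all genes tested), and RPTEC/TERT1 r1 was over 2-fold above RPTEC/TERT1 r2 in 39 of 39 (18.4%).

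Other genes of mitosis and of its transcription, 132 by name, were read for comparison. Of these 124 were on the array and 121 were tested, and limma called 0 of the 121. HK-2 r2 and RPTEC/TERT1 r1 were the 2 brightest arrays for 99 of them, against 33.2% of all genes tested. The other pair was brightest for 13, against 6400 of the 16468 genes tested. The median range of the 121 genes was 2.67.

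Among 17 regulators of cell-cycle transcription, 14 showed the split. FOXM1, an activator of late cell-cycle genes, was at -4.13, 1.17, 1.40 and -4.05, and MYBL2 (B-MYB), which joins the MuvB core to activate these genes, was at -3.97, 1.37, 1.81 and -3.88. E2F2, an activator E2F, ranged over at least 6.93. RBL2 (p130), the pocket protein of the repressive MuvB complex in resting cells, had the smallest, 0.41, and LIN37, a MuvB subunit, was brighter on the other pair of arrays, at 1.09, 0.52, 0.58 and 1.16. The group thus held genes with a range like that of the mitotic genes and genes that hardly moved.

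Kinetochore genes outside the list of 40 followed it in 24 of 26 cases, kinesins and spindle genes in 21 of 23, and cytokinesis genes in 6 of 7. KIFC1, a kinesin of the spindle poles, ranged over at least 6.67, and CEP55, a protein of the final cut between daughter cells, over 6.58. CENPT, a protein of the inner kinetochore, ranged over 0.24, and RHOA, the GTPase of the contractile ring that many cell types use outside division, over 0.95. Condensin and cohesin genes followed in 18 of 21. CDCA5 (sororin), which guards cohesion, was at -2.83, 2.79, 2.49 and -2.41, whereas RAD21, a cohesin subunit, ranged over 0.97. NCAPH, a condensin subunit, was brighter on the other pair, at -2.57, -4.69, -4.18 and -2.26, and SMC1A, the cohesin ATPase, was at -3.14, 0.33, -1.76 and -1.09.

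Core subunits of the APC/C had little range. Over 13 genes tested its median was 0.84, against 1.05 over all genes tested. The split was present in 5 of the 13 and the reverse order in 4. Over all 16468 genes tested these counts were 5467 and 6400, so the order does not set the core subunits apart. The flattest were CDC27, at -0.98, -0.96, -0.99 and -0.91, and ANAPC4, at 1.07, 1.15, 1.14 and 1.17. The widest were ANAPC1, at -2.49, -1.18, -0.89 and -2.68 (range 1.79), and ANAPC7 (range 1.51), and both showed the split. These values stand beside ranges of 5.80 for its activator CDC20, 6.88 for UBE2C, 4.38 for its inhibitor FBXO5 (EMI1) and 3.05 for its partner UBE2S. FZR1, also a partner of the APC/C, had a range of only 1.04 and the reverse order, at 0.59, -0.45, -0.20 and 0.42. Whether the core subunits and the list of 40 differ was not tested.

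**Figure D5:**
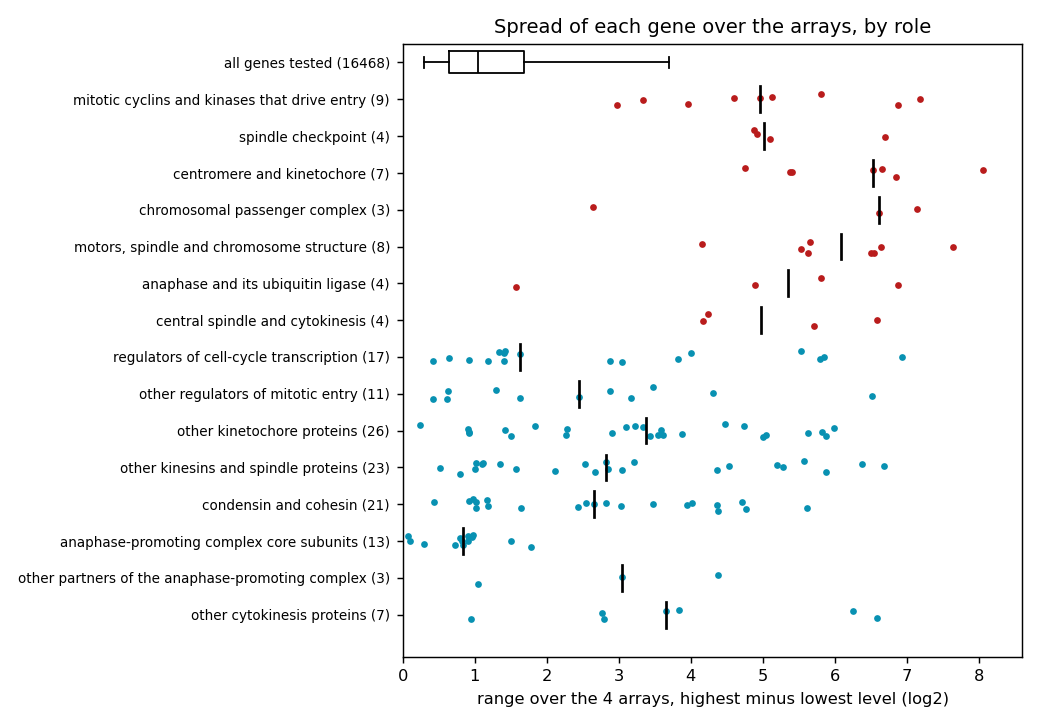
Range of each gene over the 4 arrays (horizontal axis, highest minus lowest level, log2), for the roles of the mitosis and spindle genes (red), for other genes of the pathway (blue) and for all 16468 genes tested (box of quartiles with whiskers at the 5th and 95th percentiles); black ticks are medians and numbers in brackets are genes. The medians are 6.53 for centromere and kinetochore genes, 2.83 for other kinesins and spindle proteins and 0.84 for core subunits of the APC/C, and the median of all genes is 1.05.

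By promoter, other genes of the pathway with TTTGAA in a window (43 genes) had a median range of 3.04 and those without it (57 genes) of 1.42. Within the list of 40, the 24 genes with the letters and values on all arrays had a median of 5.64 and the 10 without of 5.18. The widest of those without a match in any window were CCNA2, AURKB and KIF2C, with ranges of at least 7.18, at least 6.61 and 6.50. The narrowest were PTTG1, CCNB1 and MELK, with ranges of 1.57, 2.97 and 3.34. Variants of the letters were not searched, so a gene without a match may still carry a CHR. These medians are descriptions of the same arrays and carry no test.

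Some markers of cell type moved with the split, and their part in it was not tested. Of 15 proximal tubule markers, 10, 9, 7 and 10 were well above background on the arrays in the order above, and the sum of their scaled signals was 27.5, 6.79, 10.8 and 22.2. The brightest of them, PAX8 and DPP4, weigh most in this sum, so it does not describe the list evenly. ANPEP, also a peptidase of the brush border, was at 0.49, -5.37, -5.37 and 0.47. Of all 16468 genes tested, 6400 were brightest on HK-2 r1 and RPTEC/TERT1 r2 and 5467 on HK-2 r2 and RPTEC/TERT1 r1. Of the 10 markers that were tested, 6 had the first order and 3 the second. The latter were LRP2 (megalin, an endocytic receptor), at -3.34, -1.72, -2.77 and -3.06, and the peptidases GGT1 and MME, with ranges of 0.53 and 0.87. CUBN, SLC22A6, ALPL and HNF4A were not well above background on any array, while PAX8, a factor of the renal epithelium, was at 4.13, 1.61, 2.79 and 3.73 and DPP4, a brush border peptidase, at 2.79, 1.16, 1.31 and 2.45. Some markers of the labelled cell type were thus measured and others were not.

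Of 5 fibroblast markers, 1, 3, 3 and 0 were well above background, with summed scaled signals of 0.13, 1.92, 1.46 and 0.13. DCN was at -5.37, -0.61, -0.87 and -5.27 and LUM at -5.37, 0.23, -0.30 and -5.37, both of them matrix proteoglycans, while COL1A2 and PDGFRB lay at the floor on all arrays. Among 5 markers of the distal tubule, SLC12A1, the cotransporter of the thick limb, was at -0.51, -5.37, -5.37 and -0.10, while UMOD, a protein of the same limb, ranged over 0.34 and the other 3 were too dim to be tested. The list summed to 0.90, 0.24, 0.24 and 1.17. The 4 endothelial markers summed to 0.39, 0.27, 0.20 and 0.25 and the 4 leukocyte markers to 0.31, 0.35, 0.42 and 0.23. In every such sum a gene at the floor still adds 0.0242, so the lowest sums, as the 0.13 of the fibroblast markers, are in large part the floor.

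CDKN2A, which encodes the p16 inhibitor of cyclin D kinases, was at 0.29, 4.17, 4.04 and 0.20 and so split the arrays as the mitotic genes did. TERT, which the RPTEC/TERT1 line carries as an introduced copy, was at -4.05, -4.36, -3.62 and -4.67, and its labels overlapped. No source used here says whether its probe reads the introduced copy, so TERT does not check the labels.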

How the data were processed

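RNA of HPTCs given IL-1β plus Empa was read on 4 arrays. Groups and replicate numbers were taken from the sample labels. RNA isolation used the innuPREP kit according to the methods and the RNeasy kit according to the labels. Per the file headers, the deposited spot intensities come from Agilent Feature Extraction 9.5.3.1 (1 channel, background subtracted, not scaled between arrays), with probe positions on GRCh37. Gene models of that build were not used, so exons and UTRs of probes are not given. A table of log2 values per spot was also deposited, and how it was made is not stated in the sources used here. Its medians were 8.33, 7.14, 6.75 and 6.72 on HK-2 replicates 1 and 2 and RPTEC/TERT1 replicates 1 and 2, and it served as an alternative only.

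Control and outlier spots (1.24% to 1.85%) were dropped. Signals were scaled to the 75th percentile, floored at 0.0242 of it and taken to log2. Spots were averaged per probe, and a gene is the mean of its probes with a value on every array that rose well above background on 1 array or more. HK-2 and RPTEC/TERT1 were compared with limma 3.58.1 (R 4.3.3) over 16468 genes well above background on at least 2 arrays, with Benjamini-Hochberg adjustment at 0.05. This fit was first run on simulated data. The simulated arrays were independent and spread far less than the mitotic genes here, whose median SD within a label was 3.74. That run therefore does not show what the fit could detect in these data.

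A fold written "at least" takes, for an array on which the probe was not well above background, the higher of the probe's own signal and the lowest signal that was. None of the 40 genes had a saturated spot. The methods speak of biological duplicates. Each array lay on its own slide, so effects of slide and of array cannot be separated, and the number of arrays limits the precision. Deviations of same-numbered arrays from their label means had r = -0.810 across genes, so the numbers do not pair them. The text names all 40 genes, and examples from lists of other mitotic genes and cell type markers. The rule for the 40 genes uses names alone, but the 40 genes, the lists and the tests were chosen with earlier results of these data known. Promoters come from RefSeq (GRCh38.p14).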

Additional observations from a re-analysis of the deposited data

How the results depend on the processing

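Limma called 0 genes, and so 0 of the mitotic genes tested, under every alternative run on all 4 arrays. Of the 40, 24 were tested where a gene had to be well above background on all 4 arrays, 40 with outlier spots kept and 39 otherwise. Genes with an unadjusted limma p under 0.05 ranged from 3 to 240. With the replicate block there were 0 calls (5 genes with p under 0.05), and with a crossed block, chosen after seeing the data, 0 calls (183). The median labelled difference of the mitotic genes was 0.92 with normexp, 0.60 in the deposited log2 values and -0.07 in the main setting, and ran from -2.72 to 2.62 when 1 array was left out, so its sign follows the array removed (2.62 without HK-2 r1, -2.72 without HK-2 r2, 2.54 without RPTEC/TERT1 r1, -2.69 without RPTEC/TERT1 r2). The lone array of a label was then assumed to vary like the others.

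Within replicate 1 the median was -2.05 with normexp, -2.68 in the deposited values and -5.06 over the 24 genes well above background on all arrays. Within replicate 2 it was 3.86, 3.79 and 4.98, and 5.29 with the brightest probe. Normexp moved the median of all genes within replicate 1 from 0.12 to 0.95 and the deposited values moved it to 0.69; the cause was not tested. Quantile scaling, median centring, no filter and kept outliers left the medians within the technical spread. Background limits the low arrays: where a gene was below it, its fold is a bound.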

Other observations

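Several of the mitotic genes were read by more than 1 probe, and where both probes had a value on every array they shared the split into high and low arrays with different folds. The brighter CENPF probe had no value on HK-2 r2. Within replicate 1, RPTEC/TERT1 was brighter by 10.4-fold on one CCNB1 probe and 5.15-fold on the other. KIF23 gave 15.5-fold and 22.8-fold. For ASPM the brighter probe gave 149-fold, and the dimmer, which was not well above background on HK-2 r1, at least 67.1-fold. For PLK1 the values were 38.3-fold and at least 6.25-fold, with the second probe matched to a different transcript of the gene.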
